A study of Mus musculus with 13 samples.

Results

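The genes described here are the H3K9 demethylases, the enzymes that take methyl groups off lysine 9 of histone H3, in chemically induced skin tumours of G9a cKO and G9a WT mice. Members were all probe sets whose single gene symbol in the platform annotation was Kdm3a, Kdm3b, Jmjd1c, Kdm4a, Kdm4b, Kdm4c, Kdm4d, Kdm1a, Phf8 or Phf2. Of these 10 genes, 9 were read, by 16 of the 45037 probe sets that are not array controls, and Kdm3b was not analysed here. The 9 genes are among 17097 genes with a probe set of a single symbol. Each array held total RNA of a squamous tumour from a G9a cKO mouse (conditional knockout, n = 7) or from a G9a WT mouse (n = 6). All mice, of both genotypes, had the carcinogen DMBA (0.25 mg/ml) and the tumour promoter TPA (0.02 mg/ml) applied to shaved back skin in 200 µl volumes each week for 6 weeks, starting at 8 weeks of age, and then TPA for at most 20 weeks. The labels do not state which promoter drives the deletion or in which cells, the sex of the mice, or whether any mouse gave more than 1 tumour. The p-values therefore measure only the spread between these samples, which may be partly technical.

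G9a and its partner GLP place mono- and dimethyl marks on H3K9, which are tied to silent chromatin. Demethylases oppose them. The Kdm3 family (Kdm3a, Kdm3b and Jmjd1c) and Kdm4 family are JmjC enzymes that use iron, oxygen and 2-oxoglutarate, Kdm3 acting on mono- and dimethyl H3K9 and Kdm4 mainly on trimethyl H3K9. Kdm1a (LSD1) uses FAD in place of iron, and Phf8 and Phf2 pair a JmjC domain with a PHD finger that binds trimethylated lysine 4 of histone H3 at active promoters. Kdm3a is a known target of hypoxia-inducible factors.

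Start regions of Kdm3a, Phf2 and Phf8 are shown as examples of genes with a probe set called in both fits described below, lower in cKO tumours for Kdm3a and Phf2 and higher for Phf8. Jmjd1c and Kdm4c, also called in both, are not shown. They are the bases 5′ of the annotated gene within the 250 bases before a transcription start, from RefSeq (GRCm38.p6), 5′ to 3′ on the strand of the gene. Capitals mark CG dinucleotides, the sites of vertebrate DNA methylation.
Kdm3a, chr6:71632991-71633167, minus strand: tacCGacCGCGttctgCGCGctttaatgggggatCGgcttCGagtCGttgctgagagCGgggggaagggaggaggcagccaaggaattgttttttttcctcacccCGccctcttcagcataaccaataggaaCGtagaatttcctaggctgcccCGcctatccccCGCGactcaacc
Phf2, chr13:48870886-48871135, minus strand: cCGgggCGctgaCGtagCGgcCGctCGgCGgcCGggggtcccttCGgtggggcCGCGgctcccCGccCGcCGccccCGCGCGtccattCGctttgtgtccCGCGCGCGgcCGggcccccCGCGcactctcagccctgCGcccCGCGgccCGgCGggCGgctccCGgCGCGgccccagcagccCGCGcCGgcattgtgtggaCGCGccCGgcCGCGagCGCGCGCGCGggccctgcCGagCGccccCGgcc
Phf8, chrX:151520422-151520640, plus strand: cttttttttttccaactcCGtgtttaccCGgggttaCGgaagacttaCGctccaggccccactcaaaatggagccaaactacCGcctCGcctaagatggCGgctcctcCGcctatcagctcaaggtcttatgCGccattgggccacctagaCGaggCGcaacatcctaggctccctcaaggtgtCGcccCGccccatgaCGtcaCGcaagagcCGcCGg

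CG dinucleotides number 14 in the 177 bases shown for Kdm3a, 50 in the 250 bases for Phf2 and 17 in the 219 bases for Phf8. The median over 32851 such windows of 250 bases in the table was 6. The listed windows of 250 bases held 40 and 11 for Jmjd1c and 0 and 19 for Kdm4c, so not every window of a called gene was rich in CG. The region shown for Phf2 overlaps the annotated antisense gene Phf2os1. Over the full 250 bases and both strands, the AP-1 motif TGANTCA, through which TPA acts on many promoters, had 0 matches in these windows, against 6.75% of all windows with a match. Kdm3a has 3 listed windows, and the second, not shown, holds 1 match. The hypoxia response element core GCGTG had 1 match in the Kdm3a and Phf8 windows and 0 in Phf2, against 28.2% of all windows with a match. The core ACGTG, which the E-box CACGTG contains, had 1 match in Phf8 and 0 in the others (16.6% of all windows). Among windows not shown, the second of Kdm4c held 4 ACGTG, 2 GCGTG and 2 E-box matches, and the first of Jmjd1c held 2 GCGTG matches. The other listed window of each of these genes held 0 of these motifs.

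Ehmt2, which encodes G9a, had a pair of probe sets, with different outcomes. Probe set 2 lay between 5.87 and 6.12 (median 6.03, log2) in cKO tumours, against 8.03 to 8.61 (median 8.33) in WT tumours, a difference of -2.33 (two-sided exact permutation p = 0.000583, n = 7 and 6, the smallest that the 1716 splits can give). Probe set 1 averaged 7.42 ± 0.04 in cKO and 7.29 ± 0.19 in WT tumours (exact permutation p = 0.131, n = 7 and 6). The labels do not place either probe set relative to the deleted exons, and one that lies elsewhere in the gene is no check of the deletion.

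The deposited log2 values had array medians between 5.09 and 5.14, and the SD over probe sets was 1.83 to 1.88 on cKO arrays and 1.91 to 1.94 on WT arrays. Neighbouring arrays of a group mirrored each other around their group mean in 6 pairs, with correlations of deviations between -0.95 and -0.88, so limma fits are given without and with a term for these pairs, and the words rose and fell are kept for probe sets called by both. Of all probe sets, 47.9% were called without the term (24.4% higher and 23.4% lower in cKO) and 27% in both fits (13.9% higher and 13.1% lower). The 23 nonspecific control probe sets differed between the groups by -0.31 to 0.08, and the 18 hybridisation spike-in probe sets by 0.06 to 0.49, all higher on cKO arrays. Precision is limited by how many arrays there are and by the mirroring of neighbouring arrays. Arrays of a group are thus not independent, as the fits without the pair term and the exact permutations take them to be. Mirrored values leave little spread between pair means, and a pair term cannot restore spread that the values lack.

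Of the 16 demethylase probe sets, 10 (62.5%) were called without the pair term, 5 higher and 5 lower in cKO tumours. With both fits 7 remained, 5 lower (31.2%) on Phf2, Jmjd1c and Kdm3a and 2 higher (12.5%) on Phf8 and Kdm4c. Probe sets of 1 gene share a target, so the 5 lower ones stand for 3 genes. In these bulk tumours, fewer cells of a type and less RNA per cell cannot be told apart. All 5 had differences larger in size than 0.307, the largest size among the nonspecific controls, and neither of the 2 higher ones did. That control was lower on cKO arrays (-0.307), and the highest nonspecific control difference was 0.08, which both higher ones exceeded. Spike-in differences reached 0.49, larger in size than that of Phf2 probe set 1 (-0.48). Over all probe sets, 9.01% were lower in both fits by more than 0.307 and 6.52% higher. The median difference was 0.03 over the members and 0.00037 over all probe sets. With 1 probe set a gene, 7 of the 9 genes were called without the pair term (5 higher and 2 lower), against 45.8% of all genes (25.7% higher and 20.1% lower). With the pair term 4 were called (2 higher and 2 lower), against 24.7% of all genes (14.4% higher and 10.3% lower). Phf2 is read there by its probe set 3, which was not called. After quantile normalization 10 member probe sets were called, again 5 each way, against 46.5% of all (24.5% higher and 22% lower).

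**Figure D1:**
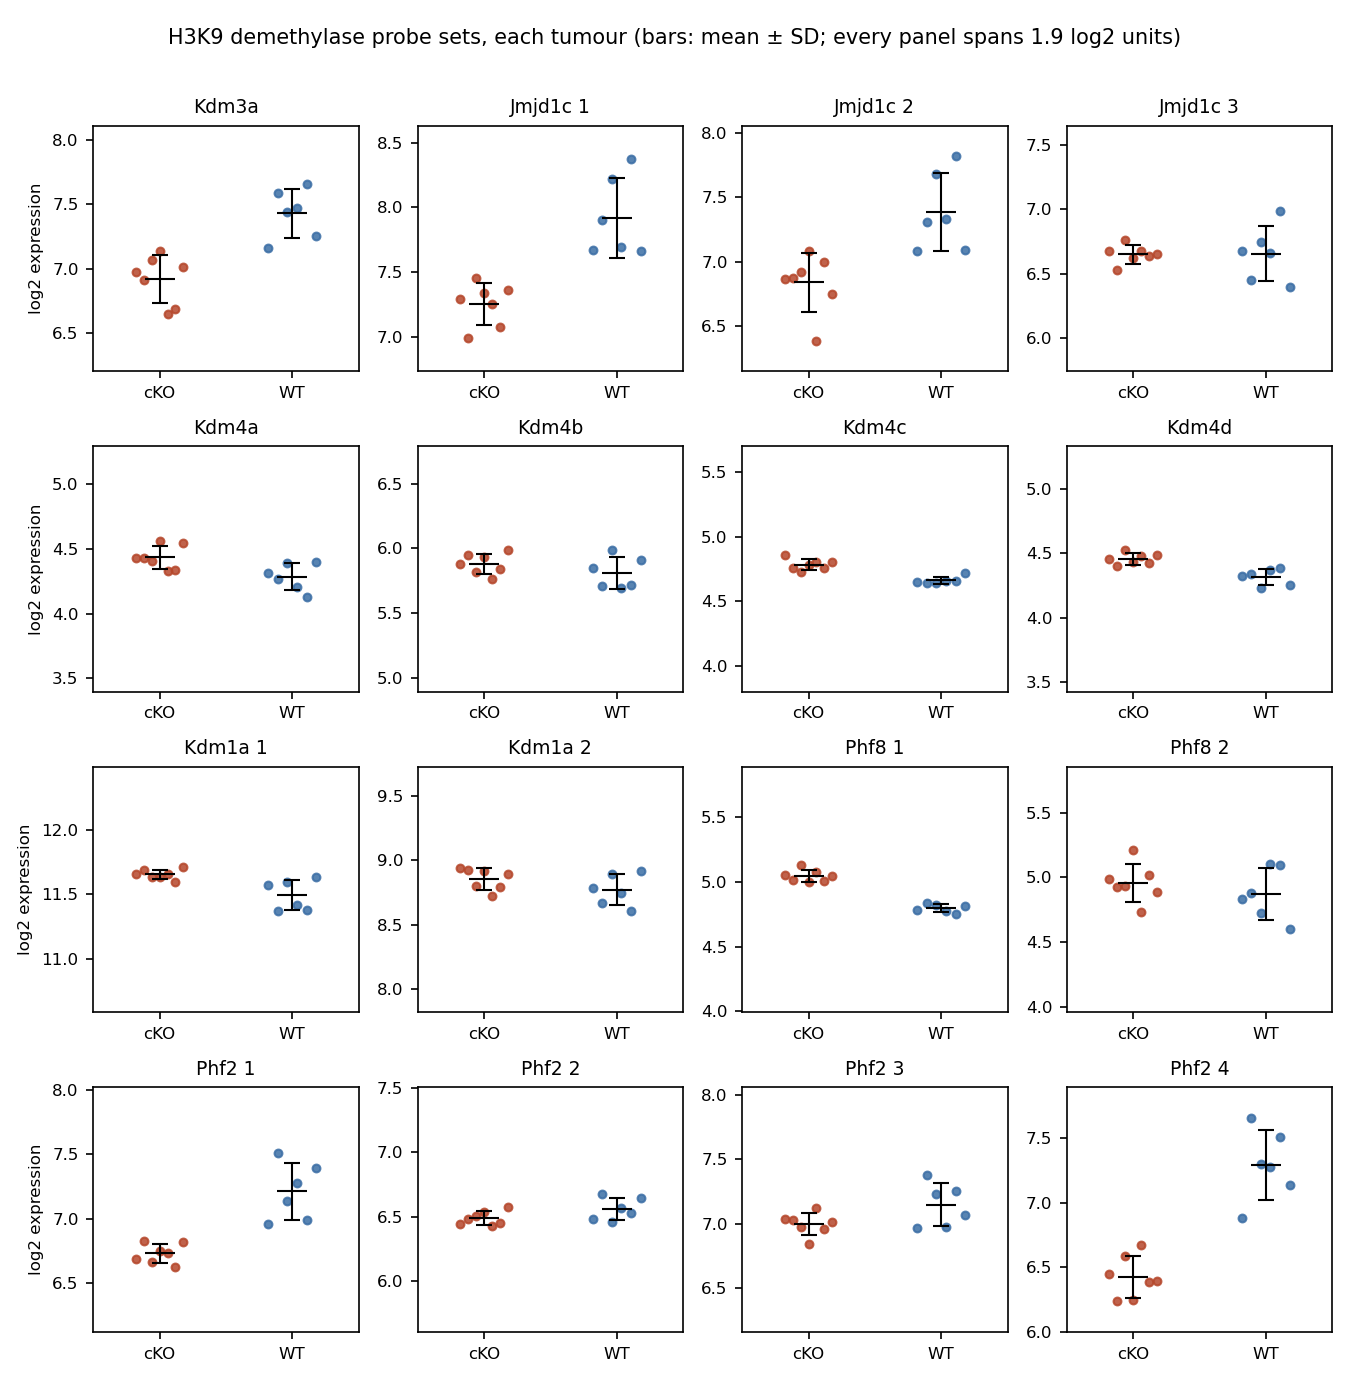
Deposited log2 expression of the 16 demethylase probe sets in each cKO (left) and WT (right) tumour, with the mean and SD; all panels have the same height on the log2 scale. The groups lie apart for Kdm3a, Jmjd1c 1, Phf2 1 and Phf2 4 (cKO lower) and for Kdm4c, Kdm4d and Phf8 1 (cKO higher), and overlap in the other 9 panels.

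Within the Kdm3 family, Kdm3a fell in cKO tumours. Its single probe set (1426810_PM_at) read 6.65 at the lowest, 6.97 at the median and 7.14 at the highest in cKO tumours, against 7.16, 7.46 and 7.66 in WT tumours. All 7 cKO tumours were below the lowest WT tumour, by a gap that was narrow beside the spread within either group. The means were 6.92 ± 0.19 in cKO and 7.43 ± 0.19 in WT tumours (SD), a difference of -0.51 ± 0.10 (SE) or 1.42-fold lower (limma adjusted p = 0.00109, and 0.0212 with the pair term). The call was lost when mean fibroblast and mean macrophage marker levels were added as covariates of cell makeup, at a difference of -0.74 (limma adjusted p = 0.0909). Summed fibroblast marker levels did not overlap between the groups (822 to 1960 in cKO and 145 to 502 in WT tumours). A fit with such a covariate cannot separate cell makeup from genotype well, and nothing about cell makeup is read from calls lost there. Over all probe sets it left 2384 higher and 2401 lower, from 11009 and 10556. Groups that do not overlap were found for 24.2% of all probe sets (10.9% with cKO lower) and for 7 of the 16 members (4 with cKO lower).

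Jmjd1c, the third member of that family, fell on probe sets 1 and 2 and not on probe set 3. Probe set 1 (1426900_PM_at) read 6.99, 7.29 and 7.45 (lowest, median and highest) in cKO tumours, against 7.66, 7.80 and 8.37 in WT tumours. Every cKO tumour was below every WT tumour, and WT replicates 6 and 8 stood at the top. The difference was -0.67 ± 0.13 (SE), 1.59-fold lower in cKO (limma adjusted p = 0.00089, and 0.0178 with the pair term), and it kept its call under all 25 alternatives tried. Probe set 2 (1439998_PM_at) read 6.38, 6.88 and 7.09 in cKO tumours, against 7.09, 7.32 and 7.82 in WT tumours. Here 6 of 7 cKO tumours lay below all WT tumours, and WT replicates 6 and 8 were again the highest. The difference was -0.54 ± 0.14 (SE, limma adjusted p = 0.00596, and 0.0413 with the pair term), and adjusted p was 0.0844 with that term after quantile normalization. With the covariates of cell makeup its difference was -0.94 and no longer called (limma adjusted p = 0.102).

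Probe set 3 of Jmjd1c (1448049_PM_at) read 6.53, 6.65 and 6.76 in cKO tumours, against 6.40, 6.67 and 6.99 in WT tumours. All cKO values lay inside the WT range. The difference was -0.004 with a 95% interval of -0.18 to 0.17 (limma adjusted p = 0.97), and it differed from that of probe set 1 by 0.66 within arrays. This comparison of probe sets within a gene was added after the values were seen. Of the 11 within-gene pairs compared, 7 had an adjusted p under 0.05, among them this one (two-sided exact permutation p = 0.000583, adjusted p = 0.0016) and Jmjd1c 3 against 2 (exact permutation p = 0.00175, adjusted p = 0.00385). The permutations treat arrays as independent, which neighbouring arrays are not. The files do not say which transcripts or exons each probe set reads.

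The Kdm4 family showed small differences, and only Kdm4a and Kdm4d had arrays under the upper quartile of nonspecific controls. Kdm4c (1424458_PM_at) read 4.73, 4.78 and 4.86 in cKO tumours, against 4.64, 4.65 and 4.72 in WT tumours. The ranges did not meet, and WT replicate 9 stood above the other WT tumours. Kdm4c rose by 0.12 ± 0.03 (SE, limma adjusted p = 0.00201, and 0.0316 with the pair term). That is smaller in size than the nonspecific control difference of -0.307 and larger than the highest one, 0.08. Kdm4c missed the threshold with the pair term after quantile normalization (limma adjusted p = 0.0702) and with the covariates of cell makeup (limma adjusted p = 0.434).

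Kdm4d (1440105_PM_at) read 4.40, 4.45 and 4.53 in cKO tumours, against 4.23, 4.33 and 4.39 in WT tumours. Its groups did not overlap, but its difference of 0.14 passed without the pair term alone (limma adjusted p = 0.00395, and 0.0612 with it), and was 0.04 with the covariates of cell makeup (limma adjusted p = 0.821). Kdm4a (1446699_PM_at) read 4.33, 4.43 and 4.56 in cKO tumours, against 4.13, 4.29 and 4.40 in WT tumours, and 5 of 7 cKO tumours were above all WT tumours. Its difference of 0.15 had a limma adjusted p of 0.0329, and 0.151 with the pair term. It lost its call after median centring or quantile normalization, with the covariates of cell makeup, and when any of cKO replicates 1, 5 and 9 or WT replicates 4, 7 and 8 was left out (limma adjusted p = 0.0517 to 0.0713). Of the WT tumours, 3 for Kdm4a and 2 for Kdm4d read under 4.29, which marks the upper quartile among nonspecific controls, so no fold is given. Kdm4b (1424044_PM_at) averaged 5.88 ± 0.08 in cKO and 5.81 ± 0.12 in WT tumours, a difference of 0.07 with a 95% interval of -0.05 to 0.19 (limma adjusted p = 0.33).

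Kdm1a, the flavin-dependent demethylase of the CoREST complex, was well above background on both probe sets, and its calls depended on the normalization. Probe set 1 (1426761_PM_at) read 11.60, 11.65 and 11.71 in cKO tumours, against 11.37, 11.49 and 11.63 in WT tumours. The groups overlapped, with 6 of 7 cKO tumours above all WT tumours and a smaller spread in cKO (SD 0.04) than in WT tumours (SD 0.12). Its difference of 0.16 ± 0.05 (SE) had a limma adjusted p of 0.0133, and 0.0968 with the pair term. Probe set 2 (1426762_PM_s_at) read 8.72, 8.89 and 8.94 in cKO tumours, against 8.61, 8.77 and 8.91 in WT tumours, a difference of 0.08 (95% interval -0.035 to 0.205, limma adjusted p = 0.226). After quantile normalization, the differences were 0.24 and 0.25, called with the pair term as well (limma adjusted p = 0.0222 and 0.023). Probe sets as bright as these, in the highest of 10 level classes, had a median difference of -0.13 before and 0.01 after that normalization.

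Phf8, an X-linked demethylase of H3K9me1, H3K9me2 and H4K20me1, rose on probe set 1. That probe set (1459392_PM_at) read 5.00, 5.05 and 5.13 in cKO tumours, against 4.75, 4.80 and 4.84 in WT tumours. All 7 cKO tumours were above all WT tumours, with little spread in either group (SD 0.05 in cKO and 0.03 in WT). The difference was 0.25 ± 0.03 (SE), 1.19-fold higher in cKO (limma adjusted p = 1.75e-05, and 0.00478 with the pair term), and it held its call under all 24 alternatives. It was smaller in size than the largest nonspecific control difference (-0.307), which went the other way, and larger than the highest one, 0.08. Probe set 2 (1460398_PM_at) read 4.73, 4.93 and 5.22 in cKO tumours, against 4.60, 4.86 and 5.10 in WT tumours, with overlap and a difference of 0.08 (95% interval -0.11 to 0.28, limma adjusted p = 0.468). The difference between these probe sets' differences did not pass (exact permutation p = 0.162, adjusted p = 0.198). Both had group means below the array medians of 5.09 to 5.14 and below the highest nonspecific control level, 6.17.

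Of 4 measured sex-linked genes, 1 was lower in both fits, with 1 probe set a gene. The Y-linked Eif2s3y averaged 6.33 ± 0.92 in cKO and 8.45 ± 0.14 in WT tumours (limma adjusted p = 0.000409, and 0.0136 with the pair term), and Xist, the RNA of the inactive X chromosome, 4.96 ± 0.56 and 6.12 ± 0.97 (limma adjusted p = 0.0312, and 0.0895 with the pair term). The Y-linked Kdm5d differed by -0.28 and Uty by 0.05 (limma adjusted p = 0.207 and 0.799), and the other Xist probe sets by -0.42 and -0.04 (limma adjusted p = 0.286 and 0.804). Other probe sets of Kdm5d differed by -0.35 and -0.52 (limma adjusted p = 0.00365 and 0.00914, and 0.0366 and 0.0647 with the pair term). Those of Uty and Eif2s3y differed by -0.20 and -0.24 (limma adjusted p = 0.0046 and 0.00466, and 0.0549 and 0.0519 with the pair term). These other Y-linked probe sets had cKO means of 3.48 to 4.26, below 4.29. With Xist minus the mean of the Y-linked genes as a covariate, the difference of Phf8 probe set 1 was 0.25 (limma adjusted p = 3.2e-05). Xist and Eif2s3y were both lower in cKO tumours, so their shifts partly cancel in that score. It ran from -1.74 to 0.48 in cKO and from -1.71 to 0.98 in WT tumours. Nothing about the sex of the mice is read from that fit.

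Over the 13 arrays, the genes whose pattern was most like that of Phf8 probe set 1 were Cep95 (Pearson's r = 0.99), Pds5b (0.986), Mllt10 (0.984), Npas3 (0.983) and Ptpn5 (0.983). These correlations are a description and carry the gap between the groups, since all 5 were higher in cKO tumours, by 0.16 to 0.76.

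Phf2, whose product acts on dimethylated H3K9 and is known for a role in fat cell differentiation, had the largest difference among the members and the widest disagreement between probe sets. Probe set 4 (1434924_PM_at) read 6.24, 6.39 and 6.67 in cKO tumours, against 6.88, 7.29 and 7.65 in WT tumours. The highest cKO tumour was below the lowest WT tumour, which was WT replicate 2. It fell by 0.87 on the log2 scale (SE 0.11), 1.82-fold lower in cKO (limma adjusted p = 6.75e-05, and 0.00614 with the pair term), and was called under all 24 alternatives, with differences between -1.26 and -0.78.

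Phf2 probe set 1 (1421067_PM_a_at) read 6.63, 6.74 and 6.83 in cKO tumours, against 6.96, 7.21 and 7.51 in WT tumours. The groups did not overlap, and the cKO tumours were closer together (SD 0.08) than the WT tumours (SD 0.22). It fell by 0.48 (SE 0.08, limma adjusted p = 0.000537, and 0.017 with the pair term), and its difference was -0.13 with the covariates of cell makeup (limma adjusted p = 0.753).

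Phf2 probe sets 2 and 3 did not pass. Probe set 2 (1421068_PM_at) read 6.43, 6.48 and 6.58 in cKO tumours, against 6.46, 6.55 and 6.68 in WT tumours, a difference of -0.07 (95% interval -0.16 to 0.02, limma adjusted p = 0.163). Probe set 3 (1421069_PM_at) read 6.84, 7.01 and 7.12 in cKO tumours, against 6.97, 7.15 and 7.38 in WT tumours, a difference of -0.15 (95% interval -0.30 to 0.001, limma adjusted p = 0.0929). Both overlapped between the groups. The difference of probe set 4 was lower than those of probe sets 1, 2 and 3 by 0.39, 0.80 and 0.72 (exact permutation p = 0.014, 0.000583 and 0.000583, adjusted p = 0.022, 0.0016 and 0.0016).

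**Figure D2:**
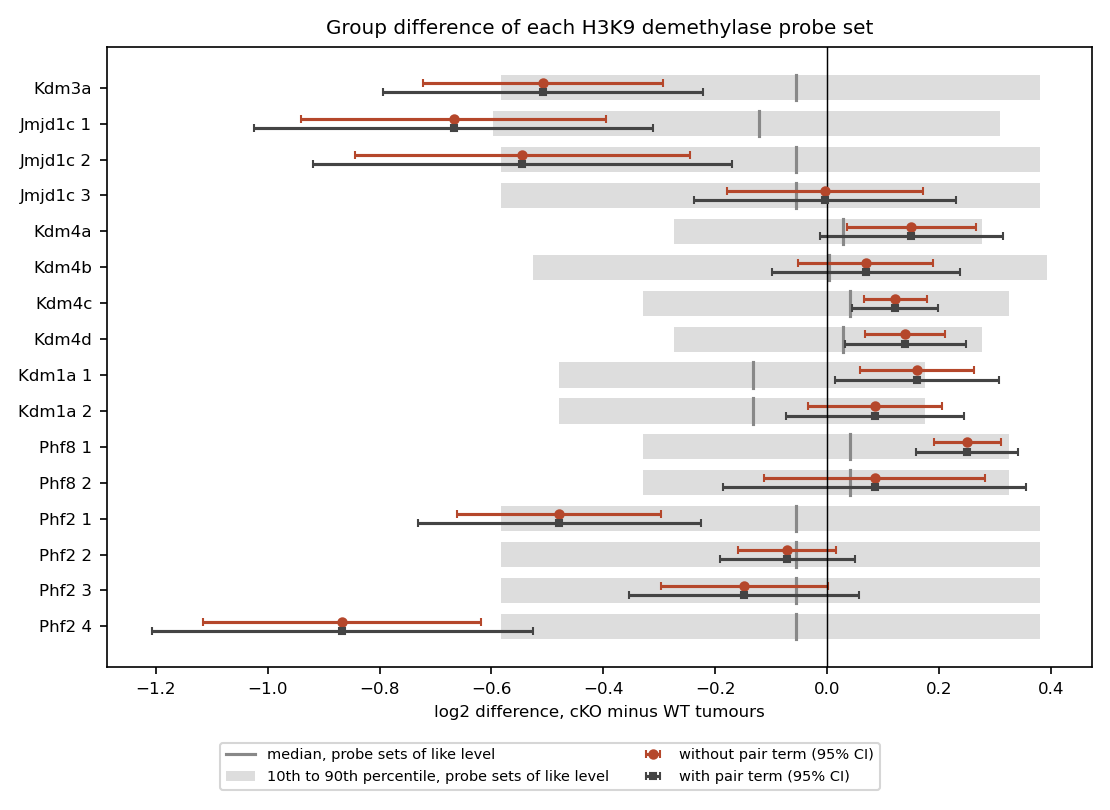
Log2 difference (cKO minus WT tumours) of each demethylase probe set with 95% intervals without (circle) and with (square) the pair term. Grey bars span the lower to upper decile, and grey lines mark the median, over all probe sets in the same of 10 level classes. Phf2 4 and Jmjd1c 1 lie to the left of their bars, and all others lie inside.

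Level matters for reading these sizes, since bright probe sets were on the whole lower in cKO arrays. Kdm3a, Jmjd1c 2 and 3 and all 4 Phf2 probe sets fall in the level class from 6.42 to 7.30, in which the median difference was -0.06, the lower decile was -0.58, and 27.2% were called lower. In that class Phf2 4 (-0.87) lay beyond that decile, while Kdm3a (-0.51), Jmjd1c 2 (-0.54) and Phf2 1 (-0.48) did not. Jmjd1c 1 (-0.67) lay beyond the lower decile of its own class, -0.60, in which 31.5% were called lower. After quantile normalization, which makes the array distributions equal, the differences of Phf2 4, Jmjd1c 1, Jmjd1c 2, Kdm3a and Phf2 1 were -0.78, -0.54, -0.44, -0.40 and -0.39.

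**Figure D3:**
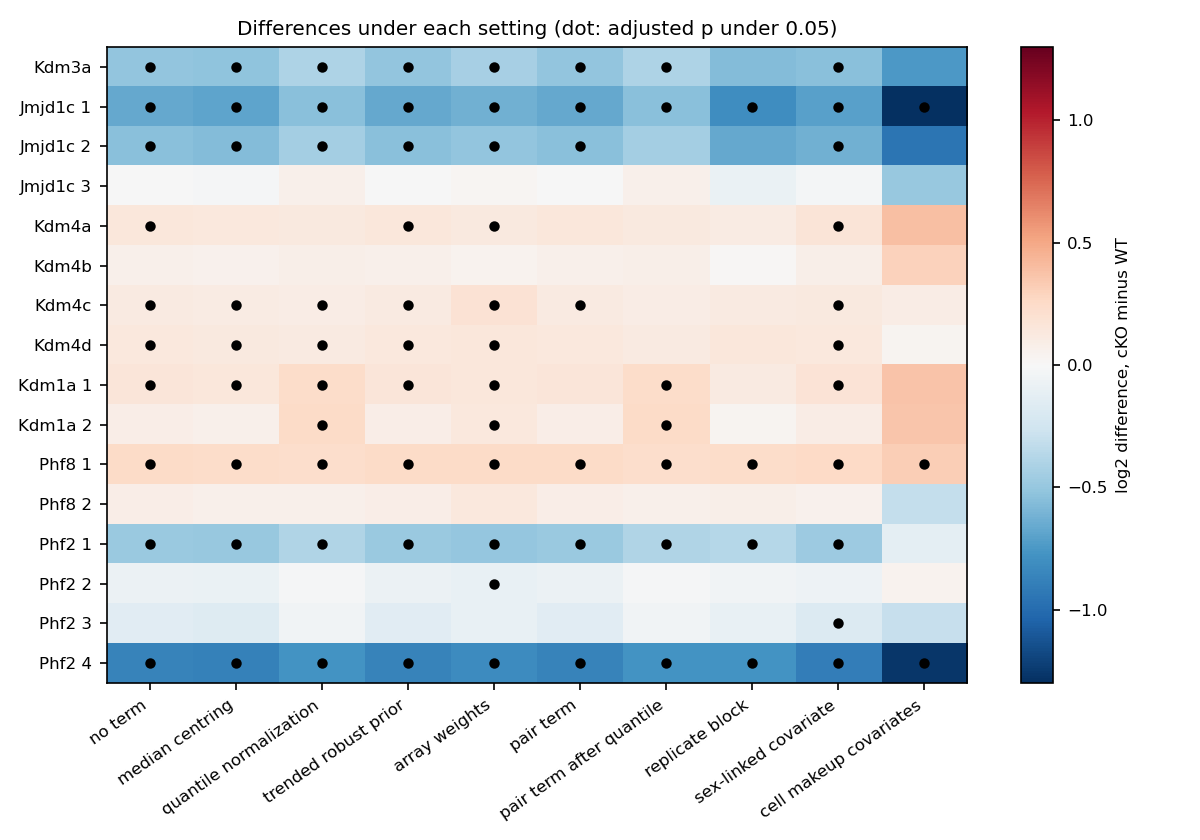
Log2 difference (cKO minus WT) of each demethylase probe set, in colour, under 10 settings, with a dot where the limma adjusted p was under 0.05. Phf2 4, Jmjd1c 1 and Phf8 1 carry a dot in every column, and both Kdm1a probe sets carry one after quantile normalization.

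Many markers of other cell types differed between the groups. Of 6 fibroblast markers, 4 were higher in both fits, with summed linear levels of 822 to 1960 in cKO and 145 to 502 in WT tumours, and of 6 endothelial markers, 4 were higher (417 to 733 in cKO and 128 to 356 in WT). The difference was smaller for 6 macrophage markers (2 higher, 211 to 312 in cKO and 182 to 232 in WT) and 4 T cell markers (2 higher, 182 to 196 in cKO and 154 to 176 in WT). Without the pair term 1 macrophage marker was lower, Cd14, which differed by -0.42 (limma adjusted p = 0.0139, and 0.0812 with the term). Col1a2 and Pdgfra of the fibroblast list and Kdr of the endothelial list differed by 0.06, -0.0007 and 0.04 (limma adjusted p = 0.228, 0.991 and 0.903). Of all genes, 14.4% were higher and 10.3% lower with the pair term. Col3a1, a fibrillar collagen gene, averaged 8.89 ± 0.58 in cKO and 5.67 ± 1.07 in WT tumours, and Pecam1 (CD31 of vessels) 7.59 ± 0.41 and 5.83 ± 0.48. The 6 keratinocyte markers, Krt5 and Krt14 among them, all had means above 10 on the log2 scale, with sums of 22599 to 26453 in cKO and 24912 to 27042 in WT tumours. Without the pair term 1 of them was higher and 3 were lower, and in both fits 1 was higher (Krt5, by 0.13) and 1 lower (Krt6a, by -0.37). The marker genes named here were chosen after their values were seen. No marker is at 0 on this scale. Means over all arrays were below 4.29 for 3 of the fibroblast markers, Col1a2, Pdgfra and Lum, of which Lum was one of those higher. They were also below it for 1 macrophage marker (Adgre1, one of those higher) and 1 T cell marker. At such levels the small differences of Col1a2 and Pdgfra say little. The part of these cells in the differences of the demethylase genes was not tested.

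The list of H3K9 methyltransferases, which also holds Wiz and Zfp644, zinc finger partners of G9a and GLP, had 3 of 10 measured genes higher and 0 lower in both fits, with 1 probe set a gene, against 14.4% and 10.3% of all genes with the pair term. Ehmt2 itself is among the 10, read by its probe set 1, which was not called. Without that term 4 were higher and 2 lower. The list's median difference was 0.12 (0.22 after quantile normalization), and 0.02 over all genes. With Ehmt2 probe set 2 in its place, a choice made after the values were seen, 1 gene was lower and the median was 0.08, and leaving out Wiz and Zfp644 left the counts at 3 and 0 and the median at 0.12. Setdb1, which trimethylates H3K9, averaged 7.97 ± 0.11 in cKO and 7.68 ± 0.08 in WT tumours, and Setdb2 4.58 ± 0.10 and 4.21 ± 0.06 (limma adjusted p = 0.000766 and 5.88e-05). The WT mean of Setdb2 was below 4.29, the upper quartile of nonspecific controls. Prdm16, a PR domain factor, averaged 5.79 ± 0.07 in cKO and 5.51 ± 0.05 in WT tumours (limma adjusted p = 4.73e-05). Another Setdb1 probe set differed by -0.15 (limma adjusted p = 0.229), and 3 others of Prdm16 by 0.14 to 0.18. Mecom differed by 0.11 (limma adjusted p = 0.00893, and 0.105 with the pair term), with both means below 4.29.

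Among 16 measured histone demethylases and related JmjC proteins outside the members, 2 were higher and 1 lower in both fits, against the same 14.4% and 10.3% of all genes. The median was -0.04, and 0.06 after quantile normalization, when the calls without the pair term were 2 higher and 1 lower in place of 2 and 4. Kdm1b, the paralog of Kdm1a, averaged 4.04 ± 0.19 in cKO and 4.67 ± 0.36 in WT tumours, a difference of -0.62 (limma adjusted p = 0.00378, and 0.0377 with the pair term), with the cKO mean below 4.29. Kdm2a, an H3K36 demethylase, rose by 0.17 on the probe set read and differed by 0.12 on another. Jmjd6, a lysyl hydroxylase, rose by 0.23 on the probe set read and fell by 0.15 on another (limma adjusted p = 0.00177, and 0.0295 with the pair term). Kdm2b differed by -0.26 (limma adjusted p = 0.007, and 0.0617 with the pair term), and by -0.12 after quantile normalization.

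Partners of Kdm1a in the CoREST complex and its recruiters went both ways, with 2 of 14 higher and 2 lower in both fits, shares near the 14.4% and 10.3% of all genes, and a median of -0.04. Hdac1, a deacetylase of the complex, averaged 7.35 ± 0.08 in cKO and 8.22 ± 0.16 in WT tumours, a difference of -0.87 (limma adjusted p = 1.13e-06, and 0.0012 with the pair term). Hdac2, also in the list, averaged 9.15 in cKO and 9.30 in WT tumours, a difference of -0.16 (limma adjusted p = 0.051, and 0.144 with the pair term). After quantile normalization the difference of Hdac2 was 0.01. Zmym2 averaged 6.83 ± 0.10 in cKO and 7.49 ± 0.18 in WT tumours, and its other probe set, with both means under 4.29, differed by 0.08 (limma adjusted p = 0.202). Hmg20b, the BRAF35 subunit, rose by 0.26, and Snai1, which recruits Kdm1a to E-cadherin, by 0.29 at a WT mean of 4.13, below 4.29.

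The hypoxia response list, which was looked at because Kdm3a, Kdm4b and Kdm4c are known hypoxia targets, had 3 of 18 genes higher and 0 lower in both fits (6 and 0 without the pair term), with a median of 0.18 (0.29 after quantile normalization). Of all genes, 14.4% were higher and 10.3% lower with the pair term, and 25.7% and 20.1% without it. The share higher with the term was thus near that background. After quantile normalization 8 were higher and 0 lower without the pair term, against 24.5% and 22% of all probe sets. Egln3, an oxygen sensor that hypoxia induces, averaged 9.66 ± 0.45 in cKO and 8.73 ± 0.38 in WT tumours, and its other probe set differed by 1.34. The mitophagy gene Bnip3 averaged 9.80 ± 0.38 in cKO and 9.01 ± 0.23 in WT tumours (limma adjusted p = 0.00222). Ankrd37 rose by 0.32, and the glycolytic gene Aldoa differed by 0.22 (limma adjusted p = 0.0171, and 0.101 with the pair term). Kdm3a, as given above, fell in the same tumours.

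Genes of 2-oxoglutarate and succinate metabolism, the cofactor of JmjC enzymes and its product, had 0 of 14 higher and 2 lower in both fits, against 14.4% and 10.3% of all genes. The median was -0.04, and 0.10 after quantile normalization, when 2 were higher and 1 lower without the pair term, in place of 1 and 3. Glud1, which makes 2-oxoglutarate from glutamate, fell by 0.32 and on another probe set by 0.41. Sdhb, a subunit of succinate dehydrogenase, fell by 0.27. After quantile normalization the differences of Glud1 and Sdhb were -0.15 and -0.10. Idh2, the mitochondrial isocitrate dehydrogenase, differed by 0.26 (limma adjusted p = 0.00442, and 0.051 with the pair term), and the succinate dehydrogenase gene Sdhd by -0.32 (adjusted p = 0.00749 and 0.0633).

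**Figure D4:**
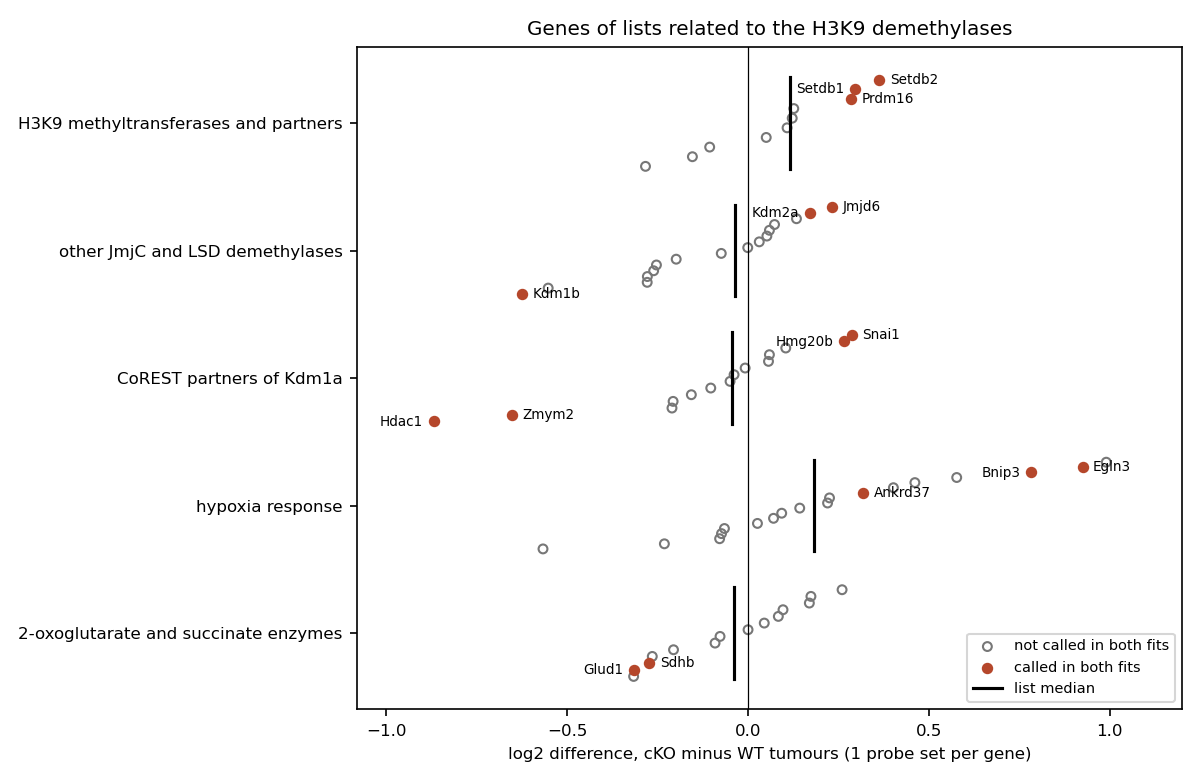
Log2 difference (cKO minus WT tumours) of each measured gene in 5 related lists, 1 probe set a gene. Filled points, with names, were called in both fits, open points were not, and the black bar is the list median. Hdac1 (-0.87), Zmym2 (-0.65) and Kdm1b (-0.62) lie farthest to the left among named genes, and Egln3 (0.93) and Bnip3 (0.78) farthest to the right.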

How the data were processed

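Total RNA (25 ng) was amplified with 17 cycles, and 8 µg of labelled cDNA was used per array, per the labels' protocols. The authors deposited log2 values, 1 for each probe set, and the submitters' processing notes name RMA without a version. Whether anything was adjusted afterwards is not stated. Of 45141 probe sets, 104 array controls were left out of the fits. Differences (cKO minus WT) were fitted on all other probe sets with limma 3.58.1 in R 4.3.3 (lmFit, eBayes, two-sided, Benjamini-Hochberg over all 45037, threshold 0.05), without and with a mean for each neighbouring pair. In the cKO group, replicate 1 was left unpaired because the correlations of deviations put the pairs at the other arrays. Lists used the probe set of highest mean per gene (17097 genes). Text names every member probe set, Ehmt2, the 4 genes of smallest p in each related list with no set test, and the 5 genes most like the member of smallest p. Some further list genes were named after the values were seen. Members and lists were chosen with earlier results of these data known. The fit script was tested on simulated data with independent arrays and few changed probe sets. Those data had neither the mirrored pairs nor the broad differences found here, so they do not show how well the fits hold on these values. Array weights stopped before full convergence. Correlations between arrays lay between 0.968 and 0.996, and 0 pairs were identical. Same-numbered arrays of the groups had correlations of deviations of -0.28 to 0.05. Alternatives were other normalizations, filters, priors and weights, gene-level reads, blocks, covariates, arrays left out and a threshold of 0.01. Figures were drawn with matplotlib 3.10.9.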

Additional observations from a re-analysis of the deposited data

Results flagged for a closer look

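Of 124 groups of values checked for a single tumour far from the rest, 6 had one, and chance gives about 1 in 20. Among the 32 groups of the demethylase probe sets there was 1, Kdm4c in WT replicate 9 (4.72, against 4.66 for the next tumour). The other 5 were Sdhb in cKO replicate 2 (9.54), Cd14 in cKO replicate 6 (5.33), Cd8a in cKO replicate 8 (6.54), and Zmym2 and Col1a1 in WT replicate 8 (7.83 and 7.77).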

How the results depend on the processing

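Counts of member probe sets called higher and lower (5 and 5) became 2 higher with the neighbouring-pair term, 3 higher with it after quantile normalization, 1 higher and 3 lower with the replicate block, 1 higher and 2 lower with the covariates of cell makeup, 1 higher without probe sets below the median level, 3 higher at a threshold of 0.01, 2 lower with 1 probe set per gene and 3 lower with the mean over probe sets of a gene. Leaving out each array in turn gave 4 to 5 higher and 5 to 6 lower. Over all probe sets (11009 higher and 10556 lower) the counts were 6251 and 5918 with the pair term, 6108 and 5187 with it after quantile normalization, 4241 and 4714 with the replicate block, 2384 and 2401 with the covariates, 3926 and 6010 without probe sets below the median, 4386 and 3444 with 1 probe set per gene, and 4315 and 3569 with gene means. Fewer features were tested in the last 3 of these; the cause of the other shifts was not tested. With arrays left out they were 9908 to 10712 and 9454 to 10394. Of 388 single member values under alternatives, 343 kept direction and side of the threshold, 28 lost the call, 7 gained one and 10 turned sign. The sign of Jmjd1c probe set 3, never called, turned after quantile normalization (0.062, also with the pair term), with array weights (0.023) and with some arrays left out (-0.055 to 0.063 over all), and those of Phf8 probe set 2 (-0.30) and Phf2 probe set 2 (0.050) with the covariates of cell makeup. Phf2 probe set 3 gained a call without WT replicate 2 (-0.18, limma adjusted p = 0.0424) or WT replicate 7 (-0.18, limma adjusted p = 0.0465), and with the sex-linked covariate. Arrays numbered 2, 6, 8 and 9 exist in cKO and WT, none correlated best with its namesake (-0.28 to 0.05), and they share only a number; the replicate block ended the calls of Kdm3a, Jmjd1c 2, Kdm4a, Kdm4c, Kdm4d and Kdm1a 1. The number of arrays and the mirroring of neighbouring arrays limit the precision of every value. Levels near background limit those of Kdm4a and Kdm4d. Kdm4b, Kdm4c and both Phf8 probe sets also had means below the highest nonspecific control level, 6.17.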
